A study of Mus musculus with 54 samples.

Results

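The genes described here are 10 heat shock genes of the mouse suprachiasmatic nucleus (SCN). They were taken from the 30031 genes of the deposited count table by matching each Ensembl identifier to the symbols *Hspa1a*, *Hspa1b*, *Hsp90aa1*, *Hsph1*, *Dnajb1*, *Hspa8*, *Hsp90ab1*, *Hspa5*, *Hspd1* and *Hsf1*. All 10 had at least 1 read in more than 6 libraries and were among the 18941 genes tested. By role, 5 are heat-inducible cytosolic chaperones or co-chaperones, 2 are constitutive cytosolic chaperones, 1 works in the endoplasmic reticulum (ER), 1 in mitochondria, and 1 encodes the transcription factor of the response. The SCN, the hypothalamic nucleus that paces daily rhythms, was cut out by laser-capture microdissection and its polyadenylated RNA was amplified and sequenced. Males of the C3H/HeH strain, 10 to 12 weeks old, gave tissue at 6 Zeitgeber times (ZT, hours after lights on) of a cycle with equal spans of light and dark. ZT2, ZT6 and ZT10 fall in the light and ZT14, ZT18 and ZT22 in the dark, and each has 3 replicates (A, B and C) made by pooling 5 mice. Every replicate is named WT (wild type) in the headers of the deposited counts, and no group was treated. The question put to the 10 genes was whether heat-inducible members varied over the day differently from constitutive, ER and mitochondrial ones.

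Heat shock proteins bind unfolded or partly folded proteins and help them reach or regain their shape. HSP70 proteins work in cycles of ATP hydrolysis set off by J-domain partners and ended by nucleotide exchange factors, and HSP90 proteins take over clients at a later stage of folding. When unfolded proteins build up, the transcription factor HSF1 forms trimers, binds heat shock elements (inverted repeats of GAA) in promoters and switches on the inducible members. The unfolded protein response of the ER instead acts on *Hspa5* through ER stress elements. In rodents body temperature follows a daily cycle with its high phase at night, and HSF1 activity in peripheral tissues is known to follow it.

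Replicates held between 15412981 (ZT18 C) and 35820945 (ZT14 A) counted reads, and levels are given as CPM, reads scaled by the library total after edgeR's TMM scaling. Nothing in the labels ties mice to replicates beyond the pools, so the spread over 3 replicates is that between pools and their amplification. The study's principal component plot is described as separating libraries by timepoint and sequencing batch, and read by eye the timepoints lie there in pairs (ZT14 with ZT18, ZT22 with ZT2, ZT6 with ZT10). The labels give no batch per library, so pair and batch cannot be told apart. Adjusted p-values come from edgeR's quasi-likelihood tests with Benjamini-Hochberg adjustment over all 18941 genes. The deposited normalized table holds fewer reads than the counts at ZT6 and ZT10 for each of the 10 genes, from 71.6% of them for *Hsf1* to 99.8% for *Hspa8*, and differs from them by at most 2 reads per gene and timepoint elsewhere. All 9 SCN neuron markers on the list used (*Avp*, *Vip* and *Six6* among them) were detected, with a summed level of 4281 to 13619 CPM per replicate.

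Promoter sequence was available for 6 of the 10 genes (RefSeq, GRCm38.p6, windows of 250 bases before to 50 after the annotated start, 9 windows in all). The first set shows the near-identical promoters of *Hspa1a* and *Hspa1b* and sets beside them that of *Dnajb1*, the inducible gene with the clearest daily pattern. The capitals mark a heat shock element of 2 inverted units (GAANNTTC), and lower case is the rest. The stretches run from base -160 to base -1 before the start, 5′ to 3′ on the gene's strand, at chr17:34972157-34972316 (minus strand), chr17:34959239-34959398 (minus strand) and chr8:83608015-83608174 (plus strand).
*Hspa1a* promoter: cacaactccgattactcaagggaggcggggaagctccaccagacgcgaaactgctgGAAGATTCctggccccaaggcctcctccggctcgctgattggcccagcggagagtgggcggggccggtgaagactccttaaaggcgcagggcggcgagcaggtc
*Hspa1b* promoter: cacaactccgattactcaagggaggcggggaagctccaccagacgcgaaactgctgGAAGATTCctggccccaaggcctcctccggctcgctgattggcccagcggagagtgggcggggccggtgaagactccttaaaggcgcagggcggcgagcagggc
*Dnajb1* promoter: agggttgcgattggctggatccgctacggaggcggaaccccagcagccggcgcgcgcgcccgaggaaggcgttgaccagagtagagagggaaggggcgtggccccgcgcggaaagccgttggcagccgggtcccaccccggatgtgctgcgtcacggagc

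The *Hspa1a* and *Hspa1b* windows differed at 4 of 300 bases, 1 of them within the 160 printed, and both held the element at base -104. These letters were not found in the *Dnajb1* window, which says only that they are not in this stretch.

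The second set shows elements of a mitochondrial, an ER and a further inducible member, 30 bases each. They lie at chr5:149636351-149636380 (minus strand, bases -44 to -15 from the start), chr1:55088053-55088082 (minus strand, -150 to -121) and chr2:34772020-34772049 (plus strand, -70 to -41). Capitals mark TTCNNGAA in *Hsph1*, overlapping 2-unit and 3-unit elements in *Hspd1*, and the ER stress element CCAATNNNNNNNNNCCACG in *Hspa5*.
*Hsph1* element: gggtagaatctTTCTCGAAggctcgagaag
*Hspd1* element: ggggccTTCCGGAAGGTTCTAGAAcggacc
*Hspa5* element: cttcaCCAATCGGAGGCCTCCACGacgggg

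Searched on both strands of all 32851 promoter windows of the table, GAANNTTC or TTCNNGAA was found in 15.1%, the 3-unit form GAANNTTCNNGAA or TTCNNGAANNTTC, which contains the shorter ones, in 0.603%, and the ER stress element in 0.119%. Of the 9 windows of the heat shock genes, 5 held a 2-unit form (*Hspa1a*, *Hspa1b*, 1 of *Hspd1* and both of *Hsph1*), 3 held a 3-unit form (*Hspd1* and both of *Hsph1*) and 1 the ER stress element (*Hspa5*). The 2 *Hsph1* windows overlap, so the same *Hsph1* sites were counted in both. Their 3-unit match lies after the annotated start, at base 16 or 37 by window. The counts are matches of letters, and binding was not measured.

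Levels per kilobase of exon spanned a wide range among the 10 genes. Constitutive *Hsp90ab1* was highest with a mean of 991 CPM per kb, followed by ER *Hspa5* with 184, inducible *Hsp90aa1* with 171 and constitutive *Hspa8* with 102. Mitochondrial *Hspd1* had 91.6 CPM per kb, and the inducible co-chaperones *Dnajb1* and *Hsph1* had 34.4 and 33.1. *Hsf1* had 4.66 CPM per kb. The stress-inducible HSP70 genes were the lowest, *Hspa1a* with 0.655 and *Hspa1b* with 0.142 CPM per kb.

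The levels of 7 of the 10 genes changed over the 6 timepoints (edgeR, adjusted p from 6.1e-09 for *Dnajb1* to 0.0147 for *Hspa8*), against 44.0% of all genes tested. The 3 that did not pass were *Hspa1a*, *Hspa1b* and *Hspd1*, and DESeq2 called 8 of 10, adding *Hspa1a*, against 54.0% of all genes. The replicates of a gene's highest timepoint all lay above those of its lowest for 10 of 10, which holds for 76.8% of all genes. Inducible members passed in 3 of 5 and constitutive ones in 2 of 2. The inducible genes that did not pass, *Hspa1a* and *Hspa1b*, had medians of 37.5 and 7 reads per replicate. Constitutive *Hspa8* and *Hsp90ab1* had 12445 and 84987, so these counts do not compare the classes at equal depth.

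**Figure D1:**
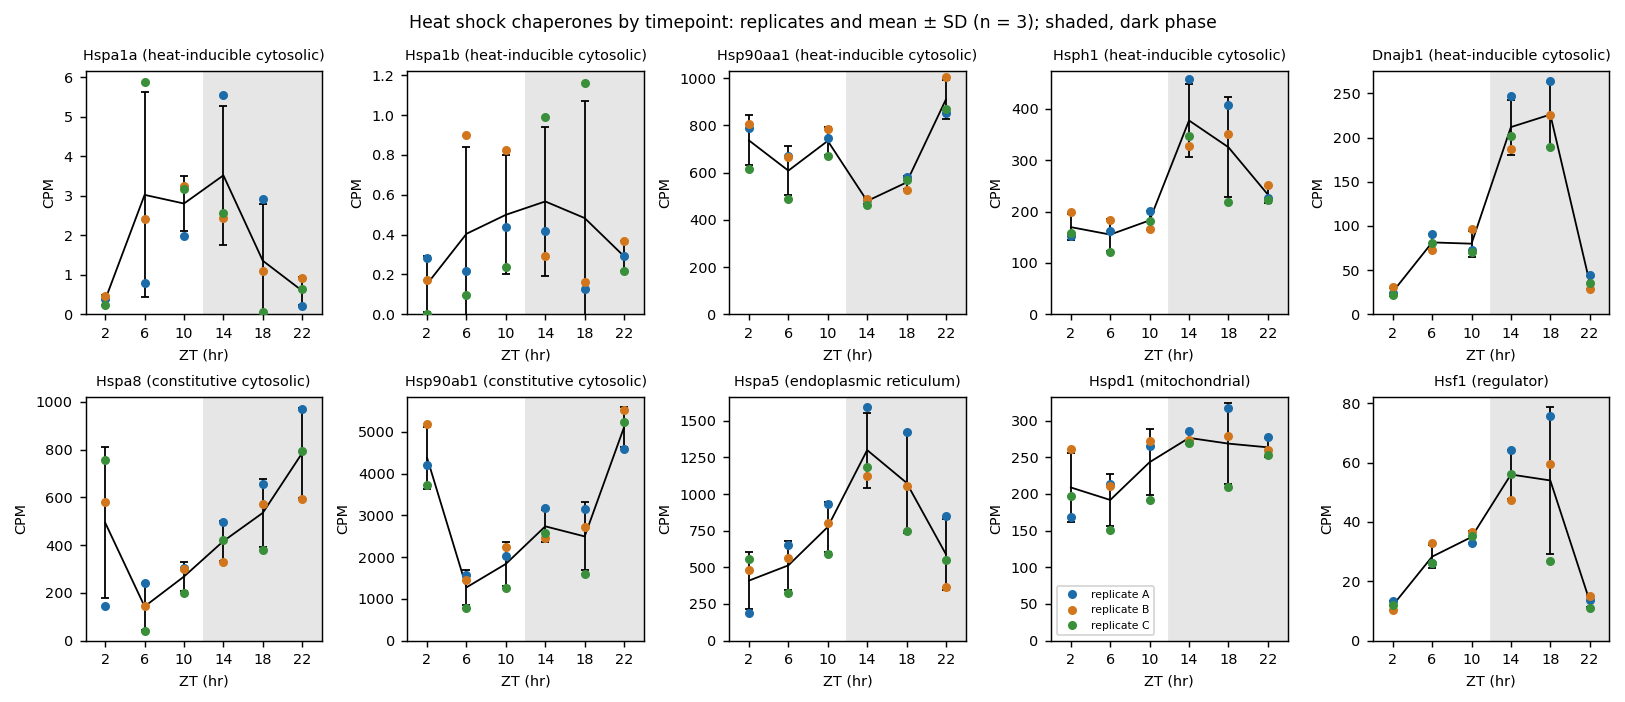
CPM of the 10 heat shock genes by Zeitgeber time (hr), 1 panel per gene, with 3 replicates per timepoint as points and their means as lines. *Dnajb1* stands at 187 to 264 CPM at ZT14 and ZT18 and at 21.4 to 43.9 CPM at ZT22 and ZT2, while *Hsp90aa1* and *Hsp90ab1* are highest at ZT22.

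Among the inducible genes, *Dnajb1*, the J-domain partner that hands substrates to cytosolic HSP70, had the largest change that passed the test. Its replicates A, B and C had 23.9, 30.6 and 21.4 CPM (ZT2), 90.7, 72.5 and 80.8 (ZT6), 72.9, 96.6 and 70.1 (ZT10), 247, 187 and 202 (ZT14), 264, 225 and 189 (ZT18), and 43.9, 28.5 and 34.9 (ZT22). All ZT14 and ZT18 replicates lay above all others, a separation shown by 2.51% of genes, and all ZT22 and ZT2 replicates lay below all others, shown by 7.93%. Such separations, here and for *Hsp90aa1*, *Hsp90ab1* and *Hsf1*, were not among the planned tests. Others looked at held for 0 of the 10 genes, namely ZT14 and ZT18 all below (1.10% of genes) and ZT6 and ZT10 all below (3.74%). The same was so for ZT14 replicates all above those of ZT18 (11.6%) and ZT10 replicates all above those of ZT6 (6.87%). The mean at ZT18 (226 ± 37.1 CPM, SD, n = 3) was 8.94 times that at ZT2 (25.3 ± 4.74). Within a pair of timepoints the replicates overlapped, and the pairs accounted for 98.5% of the variance among its 6 timepoint means. The gene (ENSMUSG00000005483) lies at chr8:83608193-83612653 on GRCm38 and shares no stretch of 100 transcript bases with another gene.

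*Hsph1* (ENSMUSG00000029657, chr5:149614287-149636376) encodes HSP110, a nucleotide exchange factor of HSP70. It had 151, 199 and 158 CPM (ZT2), 161, 183 and 121 (ZT6), 202, 166 and 181 (ZT10), 458, 327 and 347 (ZT14), 408, 350.1 and 218 (ZT18), and 227, 251 and 222 (ZT22). Every one of the 9 dark replicates (218 to 458 CPM) lay above every one of the 9 light replicates (121 to 202 CPM). Only 18 genes, 0.0950% of those tested, had this separation, and *Hsph1* was the 1 heat shock gene among them, which was looked up after its values were seen. Its change over time passed the test (adjusted p = 0.000231), with a ZT14 mean of 377 ± 70.2 CPM against 155 ± 31.2 at ZT6, a ratio of 2.43.

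*Hsp90aa1* (ENSMUSG00000021270, chr12:110690605-110702728), the inducible cytosolic HSP90, followed another order. It had 789.9, 805 and 614 CPM (ZT2), 672, 666 and 488 (ZT6), 748, 786 and 669.9 (ZT10), 486, 490.2 and 464 (ZT14), 581, 526 and 569 (ZT18), and 855, 1005 and 871 (ZT22). Its lowest mean was at ZT14 (480 ± 14.3 CPM), where *Hsph1* was highest, and its highest was at ZT22 (910 ± 82.5 CPM), 1.90 times as high (time test, adjusted p = 0.00103). All ZT22 replicates lay above all ZT2 replicates, as they did for *Hsph1* and for 5.98% of genes. Of its stretches of 100 transcript bases, 38.0% also occur in other annotated genes, pseudogenes among them, so its reads may be split or lost in counting.

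*Hspa1a* and *Hspa1b*, neighbouring genes on chromosome 17 (chr17:34969190-34972156 and chr17:34956436-34959238) for the strictly inducible HSP70, were barely detected. *Hspa1a* had 0.396, 0.473 and 0.231 CPM (ZT2), 0.781, 2.42 and 5.87 (ZT6), 1.99, 3.25 and 3.16 (ZT10), 5.55, 2.44 and 2.56 (ZT14), 2.91, 1.09 and 0.061 (ZT18), and 0.217, 0.918 and 0.645 (ZT22). The whole series held 951 reads of it, between 1 (ZT18 C) and 199 (ZT14 A) per replicate, and its SD was widest at ZT6 (2.60 CPM), followed by ZT14 (1.76) and ZT18 (1.44). ZT2 and ZT22 replicates stayed below 1 CPM, whereas all ZT10 and ZT14 replicates were at 1.99 CPM or above. The change missed the threshold with edgeR (adjusted p = 0.0548) and passed it with DESeq2 (adjusted p = 0.00625).

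*Hspa1b* had 5, 4 and 0 reads (ZT2), 5, 19 and 2 (ZT6), 9, 19 and 5 (ZT10), 15, 10 and 36 (ZT14), 4, 5 and 19 (ZT18), and 8, 10 and 6 (ZT22), 181 in all. The 0 reads at ZT2 C allow a level of up to 0.118 CPM, a limit that covers counting error only. No change was detectable at this depth (time test, adjusted p = 0.788). Because 56.5% of the *Hspa1a* and 49.9% of the *Hspa1b* stretches of 100 bases also occur elsewhere, largely in each other, the division of reads between them is uncertain. Summed over both genes, the level changed over time (adjusted p = 0.0164), from 0.518 ± 0.249 CPM at ZT2 to 4.08 ± 1.69 at ZT14 (n = 3), and dark and light did not differ detectably (log2 difference 0.06, SE 0.40, adjusted p = 0.943).

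*Hspa8* (ENSMUSG00000015656, chr9:40800984-40810087) encodes HSC70, the constitutive cytosolic HSP70. Its replicates had 143, 580.4 and 757 CPM (ZT2), 241, 146 and 41.2 (ZT6), 305, 302 and 198 (ZT10), 498, 331 and 421 (ZT14), 655, 570.1 and 379 (ZT18), and 971, 594 and 792 (ZT22). The ZT22 mean (786 ± 188 CPM) was 5.50 times the ZT6 mean (143 ± 100.0), which made it the constitutive gene with the wider range. Replicates of a timepoint were far apart, with ZT2 A at 143 beside 580.4 and 757 CPM, and ZT6 C at 41.2 CPM the lowest of all. Of its stretches of 100 transcript bases 28.5% also occur in 9 other genes, so some reads may be shared or lost, here and in the 3 ratios over *Hspa8*. The time test passed (adjusted p = 0.0147) and was kept in each of the 18 fits without 1 replicate, but was lost without the ZT6 and ZT10 libraries (adjusted p = 0.374).

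*Hsp90ab1* (ENSMUSG00000023944, chr17:45567775-45573271), the constitutive cytosolic HSP90, had the most reads of the set, 1420154. It had 4203, 5198 and 3732 CPM (ZT2), 1579, 1452 and 789.8 (ZT6), 2028, 2231 and 1250 (ZT10), 3172, 2466 and 2570 (ZT14), 3163, 2732 and 1589 (ZT18), and 4579, 5528 and 5226 (ZT22). All ZT22 and ZT2 replicates lay above all others, as for 4.21% of genes. The ZT22 mean of 5111 ± 485 CPM was 4.01 times the ZT6 mean of 1274 ± 424 (time test, adjusted p = 0.000103), and neighbours in the order of means overlapped except ZT2 and ZT14.

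*Hspa5* (ENSMUSG00000026864, chr2:34771970-34777547) encodes BiP, the HSP70 of the ER lumen. It had 191, 479 and 557 CPM (ZT2), 652, 562 and 326 (ZT6), 931, 804 and 591 (ZT10), 1592, 1121 and 1186 (ZT14), 1426, 1058 and 746 (ZT18), and 848, 366 and 552 (ZT22). It was highest at ZT14 (1299.8 ± 256 CPM) and lowest at ZT2 (409 ± 193), a ratio of 3.18 (time test, adjusted p = 0.00703). Each neighbouring pair in the order ZT14, ZT18, ZT10, ZT22, ZT6, ZT2 overlapped. Timepoints further apart in it did not always overlap, and all ZT14 replicates lay above all those of ZT10, ZT22, ZT6 and ZT2.

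*Hspd1* (ENSMUSG00000025980, chr1:55077835-55088243) encodes the mitochondrial chaperonin HSP60 and had the lowest ratio of highest to lowest timepoint mean. It ranged from 151 CPM (ZT6 C) to 318 CPM (ZT18 A) over the 18 replicates, with means from 192 ± 35.3 at ZT6 to 276.5 ± 8.63 at ZT14, a ratio of 1.44 that did not pass the time test (adjusted p = 0.155). Its first exon lies beside that of *Hspe1*, and 23.9% of its stretches of 100 bases also occur in other genes, so some reads may be shared.

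*Hsf1* (ENSMUSG00000022556) encodes the transcription factor that drives the inducible genes. It had 13.2, 10.5 and 11.8 CPM (ZT2), 26.0, 32.8 and 26.1 (ZT6), 32.8, 36.6 and 35.4 (ZT10), 64.3, 47.6 and 56.2 (ZT14), 75.6, 59.5 and 27.0 (ZT18), and 13.6, 15.2 and 11.1 (ZT22). All ZT22 and ZT2 replicates lay below all others, as for *Dnajb1*. The ZT14 mean (56.0 ± 8.36 CPM) was 4.73 times the ZT2 mean (11.8 ± 1.39, time test, adjusted p = 9.8e-06). The gene lies at chr15:76477422-76501913, and for it the pairs held 98.3% of the variance among timepoint means, against a median of 80.6% for the 10 genes and 77.2% for all genes.

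Dark against light asks whether the genes were higher in the active phase of a nocturnal animal. Higher levels in the dark were called for 7 of the 10 genes and lower levels for 0, against 14.3% of all genes higher and 9.56% lower. DESeq2 also called 7 higher and 0 lower, against 14.9% and 14.0% of all genes. At an unadjusted p under 0.05 edgeR gave 7 higher, against 22.2%, and 0 lower. The median log2 difference of the 10 genes was 0.59, that of all genes 0.13, and 8 of 10 were above 0 against 57.7% of all genes. Of all 4517 genes called in either direction 59.9% were higher in the dark. With upper-quartile scaling it was 47.1% of the 4417 genes called. The median of the 10 genes was 0.49 under that scaling, and 8 of 10 were still above 0.

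The called differences were 1.13 on the log2 scale for *Dnajb1* (SE 0.12, adjusted p = 4.7e-06, 6 of 9 dark replicates above every light one) and 0.86 for *Hsph1* (SE 0.12, adjusted p = 0.000111, 9 of 9). Constitutive *Hspa8* differed by 1.07 (SE 0.30, adjusted p = 0.0149, 2 of 9) and *Hsp90ab1* by 0.59 (SE 0.16, adjusted p = 0.0124, 2 of 9). The value was 0.78 for *Hspa5* (SE 0.21, adjusted p = 0.0137, 5 of 9) and 0.59 for *Hsf1* (SE 0.16, adjusted p = 0.0124, 5 of 9). Heat-inducible and constitutive members were thus both among the genes higher in the dark, 2 of 5 and 2 of 2. Among the inducible genes not called, *Hspa1a* and *Hspa1b* had few reads, so these counts do not compare the classes at equal depth.

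*Hspd1* was higher in the dark by 0.34 (SE 0.11, adjusted p = 0.0421), with 5 of 9 dark replicates above every light one. That call was kept in 6 of 18 fits without 1 replicate (without ZT2 B, ZT6 A, ZT6 B, ZT10 A, ZT10 B or ZT18 C) and was lost with 2 other scalings (adjusted p = 0.0701 and 0.130), with no filter (0.0820) and with recovered reads (0.114). The 3 genes not called were *Hspa1a* (-0.04, 95% confidence interval -1.24 to 1.16), *Hspa1b* (0.45, -1.04 to 1.94) and *Hsp90aa1* (-0.14, -0.33 to 0.04). For *Hsp90aa1* the normalized table's recovered reads gave -0.25 (adjusted p = 0.0468), so its level in the dark was lower there.

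The dark against light values rest in part on the ZT6 and ZT10 libraries. With those left out, a choice made after seeing that the 2 deposited tables differ there, 4 genes were called higher in the dark than at ZT2, *Dnajb1* by 2.24, *Hsf1* by 1.53, *Hspa5* by 1.20 and *Hsph1* by 0.85. Over all genes that fit called 3412 in either direction, against 4517 with all libraries. In it *Hsp90ab1* turned to -0.42 (adjusted p = 0.122) and *Hspa8* was not called at 0.18 (adjusted p = 0.776). The 2 constitutive genes were therefore called higher in the dark with ZT6 and ZT10 in the fit, and not without them.

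**Figure D2:**
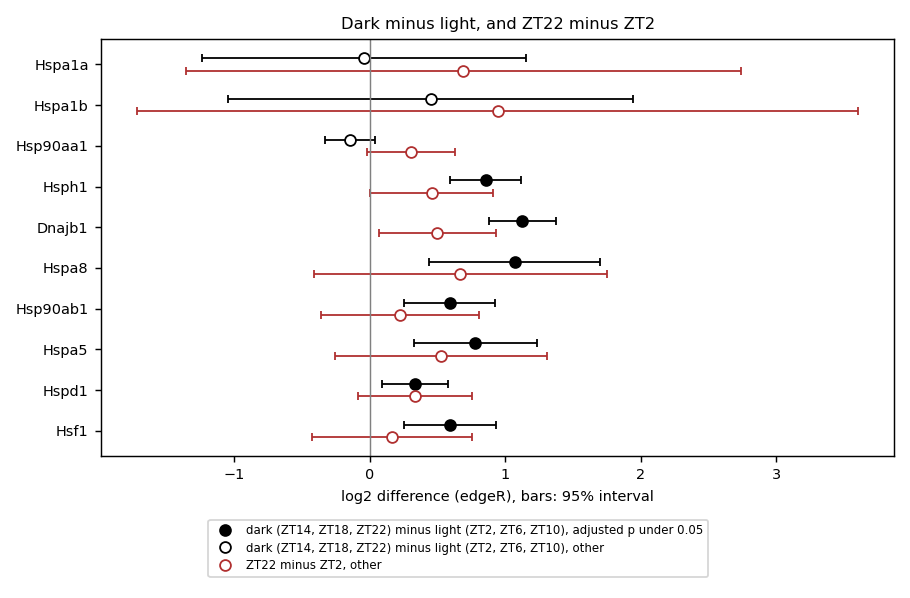
Log2 differences of the 10 heat shock genes with 95% confidence intervals, for dark minus light and for ZT22 minus ZT2 (edgeR, 18 replicates). Dark minus light was called for 7 genes with values of 0.34 to 1.13, and ZT22 minus ZT2 for 0 genes.

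Other cells of the captured tissue varied over the same samples. Oligodendrocyte markers were higher in the dark for 5 of 6 genes, with a summed level of 4716 to 5903 CPM at ZT14 and 5075 to 6071 at ZT18 against 1267 to 4409 at the other timepoints. SCN neuron markers were lower in the dark for 6 of 9 genes and higher for 1. Astrocyte markers were higher for 3 of 6, telencephalic excitatory neuron markers for 3 of 4, endothelial markers for 2 of 6 and those of neighbouring hypothalamic neurons for 1 of 6. Of 6 microglia markers 2 were higher and 1 lower, and of 6 pan-neuronal ones 1 was higher and 2 lower. Ependymal markers were lower for 2 of 5 and ranged from 2.91 to 3369 CPM in sum. Of all genes 14.3% were higher and 9.56% lower. No marker was below 1 CPM in every replicate, and the part of these cells in the heat shock values was not tested. In bulk tissue, fewer cells of a type and less RNA per cell cannot be told apart.

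Comparisons inside a pair of timepoints avoid the difference between pairs. None of the 10 genes was called between ZT14 and ZT18, ZT22 and ZT2, or ZT6 and ZT10 (0 each), where edgeR called 0.570%, 0.0317% and 0.0475% of all genes. DESeq2 also called 0 in each, with 5.17%, 0.218% and 1.48% of all genes, and 9 of the 10 had an adjusted p in the second. At an unadjusted p under 0.05 edgeR gave 0, 2 and 0 heat shock genes, against 13.5%, 3.59% and 10.8% of all genes.

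ZT22 against ZT2 spans lights on. All 10 genes had a value above 0 there, against 51.5% of all genes, with a median log2 difference of 0.48 against 0.01. The 2 with an unadjusted p under 0.05 were *Dnajb1* (0.50, SE 0.20, unadjusted p = 0.0247) and *Hsph1* (0.46, SE 0.22, unadjusted p = 0.0474), and both had an adjusted p of 1. The 95% interval was 0.07 to 0.93 for *Dnajb1* and 0.01 to 0.91 for *Hsph1*, and those of the other 8 genes included 0.

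Between ZT14 and ZT18 the median was 0.09 (0.01 over all genes), with *Hspa1a* the widest at 1.36 and an interval of -0.62 to 3.34. Without ZT18 C, which was the lowest of its timepoint for 7 of the 8 genes other than *Hspa1a* and *Hspa1b*, the values of *Hsph1*, *Hsp90ab1*, *Hspd1* and *Hsf1* turned from above 0 to -0.01, -0.11, -0.11 and -0.27. Between ZT6 and ZT10 the median was -0.30 (-0.03 over all genes), and 2 of 10 were above 0. *Hspa8* had the widest value there, -0.91 with an interval of -2.00 to 0.18.

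A gene was called cycling when the time test passed and JTK_CYCLE, a rank test for a 24 hr wave, gave p under 0.05 (from its exact null distribution, multiplied by the 6 lags tried). This held for 6 of the 10 genes, against 29.8% of all genes, and JTK_CYCLE alone for 8 of 10, against 37.1%. *Dnajb1*, *Hspa5* and *Hsf1* had their best fit with a peak at ZT14 (JTK_CYCLE exact p = 0.000400, 0.000246 and 8.5e-05), *Hsph1* at ZT18 (exact p = 0.000986), and the constitutive *Hsp90ab1* and *Hspa8* at ZT22 (exact p = 0.00150 and 0.00942). *Hsp90aa1* missed the threshold (exact p = 0.0549, best fit at ZT2) and was called in 5 of 18 fits without 1 replicate (without ZT2 C, ZT6 B, ZT6 C, ZT10 A or ZT10 B). *Hspa1a* and *Hspd1* passed JTK_CYCLE (exact p = 0.0421 each) and not the time test. *Hspa1b* passed neither (exact p = 0.332).

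Ratios inside a library compare an inducible, ER or mitochondrial gene with a constitutive partner and do not depend on the library total. They are log2 ratios of counts (pseudocount 0.5), so only differences between groups can be read from them, not which gene is higher. Exact permutation tests (two-sided, 9 dark against 9 light replicates, adjusted over 6 ratios) were used, and replicates of a timepoint pair are alike, so values by timepoint stand beside them.

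*Hsph1* over its constitutive relative *Hspa4* had 1.39, 1.71 and 1.77 (ZT2), 1.33, 1.17 and 0.56 (ZT6), 1.57, 1.29 and 1.35 (ZT10), 3.11, 2.69 and 2.78 (ZT14), 3.46, 3.44 and 2.32 (ZT18), and 1.96, 1.69 and 1.97 (ZT22). The ratio was higher in the dark by 1.25 on the log2 scale (exact permutation p = 0.000123, adjusted 0.00074), and the call was kept in 18 of 18 fits without 1 replicate. It was lost without ZT6 and ZT10 (0.98, exact permutation, adjusted p = 0.136) and without ZT14 and ZT18 (0.52, adjusted p = 0.109). Each of these leaves 1 phase with the 3 replicates of a single timepoint, a smaller design, and the difference stayed above 0 in both. Dark and light overlapped by a little, since ZT22 B at 1.69 lay below ZT2 B and ZT2 C. *Hspa4* itself was lower in the dark by 0.40 (log2 difference -0.40, adjusted p = 0.00868), so the difference of the ratio holds a difference of each gene.

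*Dnajb1* over *Dnaja2*, another cytosolic J-domain gene, was higher in the dark by 1.20 (exact permutation p = 0.0239, adjusted 0.0389). Its means were 0.82 ± 0.21 at ZT14 and 0.81 ± 0.74 at ZT18, against -1.65 ± 0.32 at ZT22 and -1.89 ± 0.35 at ZT2 (n = 3), so ZT22 lay with ZT2 and not with the other dark timepoints. The call was kept in 4 of 18 fits without 1 replicate, those without ZT18 C, ZT22 A, ZT22 B or ZT22 C. *Dnaja2* did not differ detectably between dark and light (-0.07, adjusted p = 0.758).

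*Hsp90aa1* over *Hsp90ab1*, inducible over constitutive, was lower in the dark by 0.74 (difference -0.74, exact permutation p = 0.0235, adjusted 0.0389). The ratio stood at -1.02 ± 0.28 at ZT6 and -1.28 ± 0.33 at ZT10, and lower elsewhere, with -2.57 ± 0.14 for ZT2, -2.50 ± 0.19 for ZT14, -2.10 ± 0.54 for ZT18 and -2.49 ± 0.09 for ZT22. ZT2 therefore lay with the dark timepoints, and without ZT6 and ZT10 the difference turned to 0.20 (exact permutation, adjusted p = 0.305). The call was kept in 4 of 18 fits without 1 replicate (without ZT2 A, ZT2 B, ZT2 C or ZT18 C).

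*Hspd1* over *Hspa8* was lower in the dark (-0.92, exact permutation p = 0.0260, adjusted 0.0389), with means from 0.74 ± 1.04 at ZT6 to -1.55 ± 0.32 at ZT22. That call was kept in 3 of 18 fits without 1 replicate (without ZT2 B, ZT2 C or ZT18 C). *Hspa5* over *Hspa8*, ER over cytosol, did not differ detectably (-0.46, exact permutation p = 0.353, adjusted 0.353), though its means ran from 2.12 ± 0.79 at ZT6 to -0.47 ± 0.25 at ZT22. The summed *Hspa1a* and *Hspa1b* over *Hspa8* did not either (-1.15, exact permutation p = 0.259, adjusted 0.311). Its values ranged from -11.56 at ZT2 C to -2.78 at ZT6 C, the library with the least *Hspa8*.

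Inside the pair ZT22 and ZT2 the 4 ratios called above had differences of 0.25 (*Hsph1* over *Hspa4*), 0.24 (*Dnajb1* over *Dnaja2*), 0.08 (*Hsp90aa1* over *Hsp90ab1*) and -0.59 (*Hspd1* over *Hspa8*), each with an adjusted exact permutation p of 0.72, in a design of 3 against 3 that cannot reach the threshold.

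**Figure D3:**
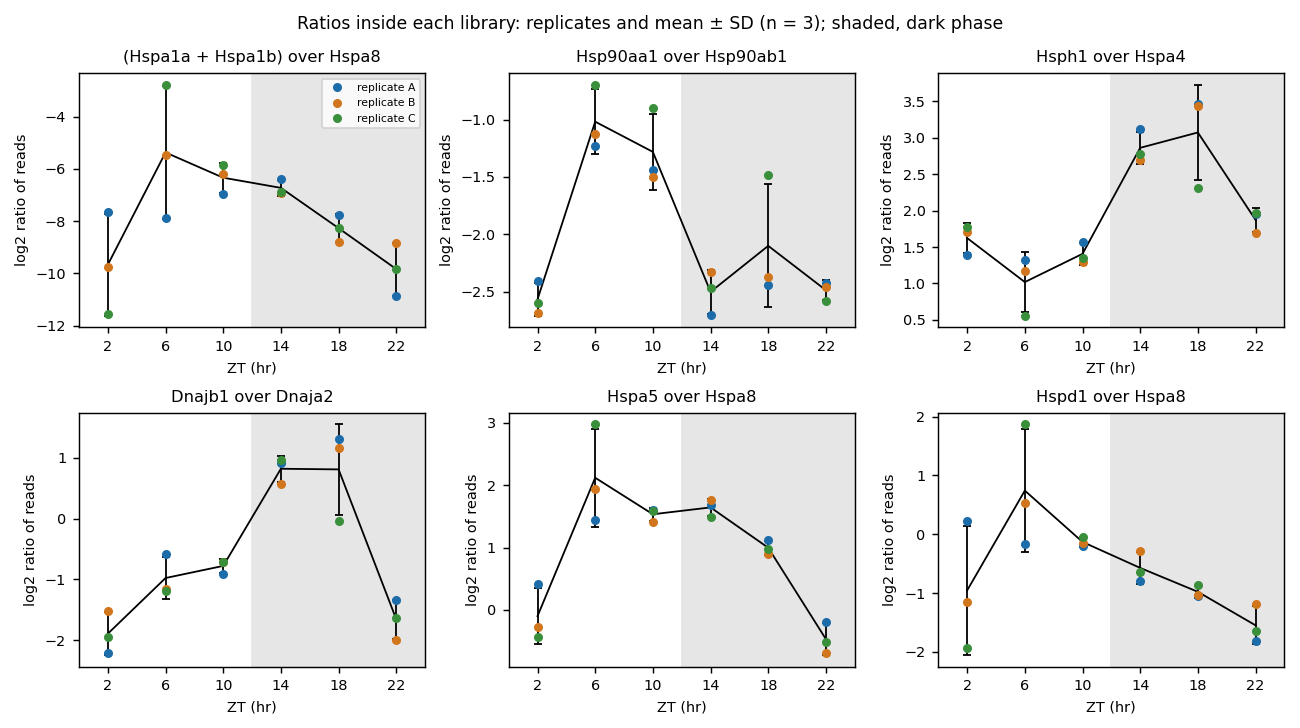
Log2 ratios of counts per replicate by Zeitgeber time (hr) for the 6 pairs of genes, with 3 points and their mean per timepoint. *Hsph1* over *Hspa4* lies between 1.69 and 3.46 in the dark and between 0.56 and 1.77 in the light, whereas *Hsp90aa1* over *Hsp90ab1* has its highest means at ZT6 and ZT10 (-1.02 and -1.28).

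Other chaperone genes give the setting. Over 6 lists with 74 genes, of which 72 were tested, 52 changed over time, 41 were called cycling, 19 were higher and 11 lower in the dark, and 0 were called inside a pair of timepoints. The shares over all genes tested were 44.0% for the time test, 29.8% for cycling, and 14.3% higher and 9.56% lower in the dark, and they are the background for the counts of each list as well. The named genes are the 3 of each list with the smallest time-test p.

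Of 26 HSF1 targets and cytosolic co-chaperones, 17 changed over time, with 7 higher and 5 lower in the dark. The leading genes were *Cacybp*, a partner of ubiquitin ligases, from 71.0 ± 2.58 CPM at ZT2 to 314 ± 19.8 at ZT18 (adjusted p = 1.6e-08), *Stub1*, the ubiquitin ligase CHIP that acts on HSP70 clients, from 11.3 ± 1.16 at ZT2 to 92.1 ± 13.2 at ZT10 (adjusted p = 1.1e-07), and *Dnajb6*, a J-domain gene, from 24.4 ± 4.73 at ZT2 to 161 ± 32.8 at ZT10 (adjusted p = 1.4e-07). *Dnajb6* was lower in the dark by 0.75 (log2 difference -0.75, adjusted p = 0.000584), the opposite of *Dnajb1*. Both genes had their lowest means at ZT22 and ZT2. *Dnajb6* was highest at ZT6 and ZT10 (log2 level over its mean 0.67 and 1.07), where the 2 deposited tables differ. *Dnajb1* was highest at ZT14 and ZT18 (0.95 and 1.04). J-domain genes of the cytosol thus did not share 1 direction of dark against light.

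The cytosolic chaperonin TRiC, which folds actin and tubulin, had 7 of its 8 genes in the table, and 7 of 7 changed over time and were called cycling. Of these, 4 were higher in the dark and 0 lower, against 14.3% and 9.56% of all genes. *Cct5* ran from 309 ± 26.9 CPM at ZT6 to 804 ± 48.7 at ZT22 and *Cct3* from 148 ± 44.7 at ZT6 to 474 ± 35.0 at ZT22 (adjusted p = 9.1e-06 and 2.6e-05), the same ends as *Hsp90ab1* and *Hspa8*. *Cct4* instead had its lowest mean at ZT2 (47.8 ± 5.88) and its highest at ZT18 (219 ± 23.6, adjusted p = 4.0e-08).

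In the ER list 14 of 17 genes changed over time, 5 were higher in the dark and 4 lower. *Manf*, a secreted factor of the ER stress response, had the widest range, 13.2 ± 1.08 CPM at ZT2 and 246 ± 44.4 at ZT10, a ratio of 18.7 (adjusted p = 2.7e-10). *Herpud1*, part of ER-associated degradation, ran from 46.3 ± 2.26 at ZT22 to 229 ± 32.2 at ZT14, and *Dnajb9*, a J-domain partner of BiP, from 21.1 ± 2.50 at ZT22 to 101 ± 17.5 at ZT6 (adjusted p = 2.3e-07 and 4.6e-07). *Hspa5* and *Herpud1* thus had their highest means at the same timepoint.

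Mitochondrial chaperones and proteases changed in 3 of 9, with 2 higher and 1 lower in the dark. *Hspe1*, the lid of the HSP60 chaperonin, fell from 323 ± 28.7 CPM at ZT6, where the 2 deposited tables differ, to 150.1 ± 14.3 at ZT14 (adjusted p = 1.8e-05). It shares a promoter region with *Hspd1*, whose lowest mean was at ZT6 and highest at ZT14. *Hspd1* did not pass the time test (adjusted p = 0.155), so an opposite pattern of the 2 genes was not shown. *Dnaja3*, the mitochondrial J-domain gene, ran from 46.7 ± 10.1 CPM at ZT2 to 104 ± 20.9 at ZT18, and *Trap1*, the mitochondrial HSP90, from 49.2 ± 3.11 at ZT6 to 107.5 ± 10.1 at ZT14 (adjusted p = 0.000433 and 0.0383).

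Stress transcription factors changed in 7 of 8, with 0 higher and 1 lower in the dark, against 9.56% of all genes lower. *Xbp1*, of the unfolded protein response, fell by 0.81 in the dark (log2 difference -0.81, adjusted p = 0.00046) and was highest at ZT10 (151 ± 20.3 CPM) and lowest at ZT2 (44.4 ± 7.76). *Atf4* was highest at ZT6 (123 ± 18.9) and *Creb3* at ZT2 (310 ± 52.5), both passing the time test (adjusted p = 9.4e-06 and 0.000884). Other HSP70 genes changed in 4 of the 5 tested of 6 listed. *Hspa2* had 82.9 ± 13.1 CPM (ZT14) and 11.9 ± 2.03 (ZT2) (adjusted p = 2.0e-07), *Hspa13* had 163 ± 44.0 (ZT2) and 83.5 ± 2.21 (ZT10), and *Hspa12a* had 112 ± 25.3 (ZT22) and 40.9 ± 3.74 (ZT10) (adjusted p = 0.00100 and 0.00188).

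**Figure D4:**
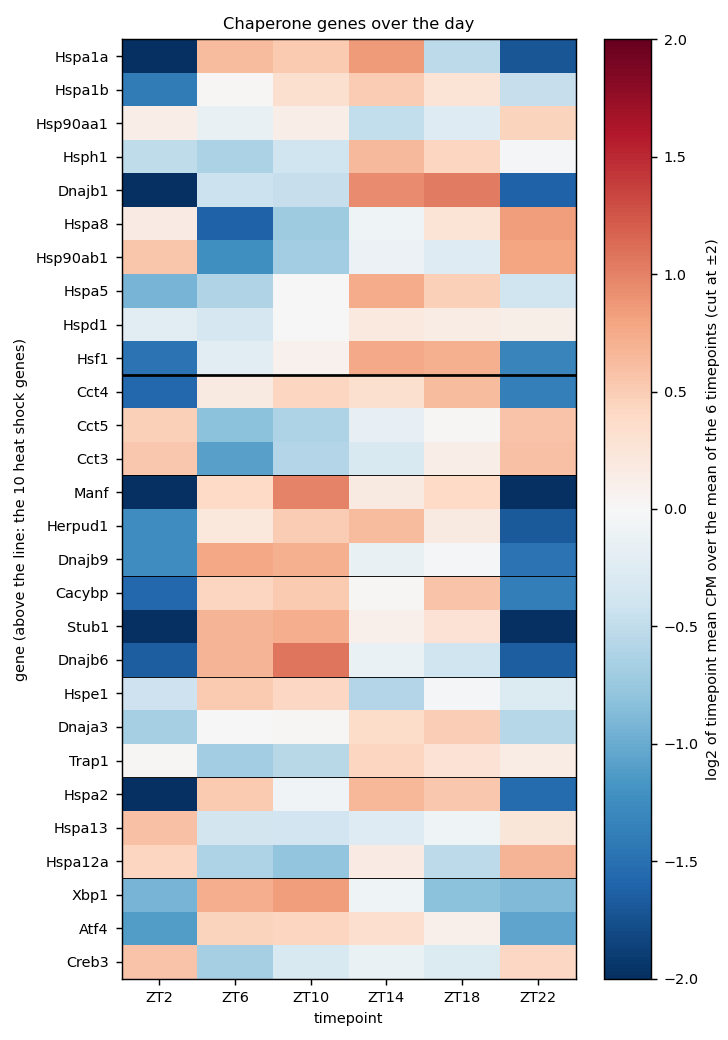
Log2 level of each timepoint (ZT2 to ZT22) over the gene's mean, for the 10 heat shock genes above the line and the named genes of the other chaperone lists below it. *Dnajb1* and *Hsf1* share their lowest levels at ZT22 and ZT2, where *Hsp90ab1* is at its highest. *Hsp90aa1* is highest at ZT22 (0.44), with ZT2 and ZT10 level at 0.13.

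Handling or light before death can raise immediate early genes within the hour, and they were read as a check on it. Of 9 such genes 8 changed over time, 4 were higher in the dark and 3 lower. *Arc* was highest at ZT14 (209 ± 104 CPM against 4.51 ± 2.70 at ZT2), *Junb* and *Dusp1* at ZT6 (14.6 ± 2.05 and 51.0 ± 4.52 CPM), and *Egr1* at ZT14 (78.0 ± 17.5 CPM), the 1 gene of the list called between ZT14 and ZT18 (adjusted p = 0.0242). The part of handling in the heat shock values was not tested.

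Genes whose log2 levels over the 18 libraries were most like those of 4 heat shock genes were picked among the 15758 genes that averaged 10 or more counts. All share the same libraries, depth and timepoint pairs, so Pearson's r is a description. *Hspa8* was most like *Anxa5*, *Bid* and *Atp6v1c1* (r = 0.950, 0.939 and 0.935), and *Hspa5* most like *Capzb*, *Gdi2* and *Bcl2l1* (r = 0.953, 0.952 and 0.951). *Hsp90aa1* was most like *Wdr83os*, *Mrpl21* and *Hax1* (r = 0.951, 0.946 and 0.941).

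Within the set, *Hspa5* had r = 0.781 with *Dnajb1*, 0.774 with *Hsph1*, 0.762 with *Hspd1* and 0.731 with *Hsf1*. *Hspa8* had r = 0.774 with *Hsp90ab1* and 0.745 with *Hspd1*. These pairs ranked only from 370 (*Hspa8* with *Hsp90ab1*) to 881 (*Hspa5* with *Hsf1*) among the 15758 genes, so many genes outside the set were more alike. *Hsp90aa1* had r = -0.751 with *Dnajb1* and -0.707 with *Hsf1*. *Hspa1b* reached r = 0.768 at most (*Adrb1*, then *Dhrs9* with 0.754 and the unnamed ENSMUSG00000087182 with 0.734), and only 0.0887 with its near-identical neighbour *Hspa1a*, both of them at few reads.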

How the data were processed

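RNA from laser-captured SCN was amplified with the SMARTer kit (RIN over 8 per the labels) and sequenced, 18 libraries on 3 lanes each (54 lane samples). Per the labels, the authors aligned reads with GSNAP to mm10/GRCm38, counted them per gene with HTSeq 0.5.4p1 and normalized with DESeq2. Whether counting used strand is not given in the sources used here. The count table deposited by the authors (30031 genes, whole reads, lanes combined) was used throughout, and 0 columns were left unused. Their normalized table is a signal deposited by the authors, counts divided by a size factor per library, from which 100% of values came back as whole reads within a tolerance of 0.1 of a read (31077 genes, 26118 in both tables). It served as an alternative.

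A gene needed 1 read or more in over 6 replicates, and those genes were fitted with edgeR 4.0.16 (R 4.3.3, TMM scaling, quasi-likelihood, timepoint as the factor, threshold 0.05 after Benjamini-Hochberg adjustment). JTK_CYCLE was rewritten in Python 3.11.15 (numpy 2.4.6, scipy 1.17.1, pandas 2.3.3, with plots by matplotlib 3.10.9). The fits were tested on simulated counts. Symbols matched 97.2% of the identifiers. The 10 genes, the gene lists, the marker lists and the tests were chosen with earlier results of these data known. The rule for names took all 10 genes, their ratio partners, the 3 genes of each chaperone list with the smallest time-test p, any listed gene called inside a timepoint pair, and the 3 genes most like each of 4 members. *Arc*, *Junb*, *Dusp1* and *Egr1* follow the same rule. Alternatives were DESeq2 1.42.0, other scalings and filters, a replicate block, recovered reads, limma 3.58.1 cosinor regression, other pseudocounts, leaving out each replicate, and 2 added after seeing the data. With 3 pools per timepoint and amplified RNA, p-values measure the spread between these pools.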

Additional observations from a re-analysis of the deposited data

Results flagged for a closer look

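The 12 groups of 9 replicates (6 ratios, dark and light) were screened with Dixon's 95% critical value for the gap over the range. In 2 of them a replicate was set apart from the rest. That critical value assumes draws from a single population, whereas each group mixes timepoints with different means, so no rate by chance is given. *Hsp90aa1* over *Hsp90ab1* at ZT18 C was -1.48 on the log2 scale, with a gap over range of 0.692 to the other 8 dark replicates, and without it the dark minus light difference was -0.85 (exact permutation, adjusted p = 0.0341). *Hsph1* over *Hspa4* at ZT6 C was 0.558, with a gap over range of 0.509 to the other 8 light replicates, and without it the difference was 1.15 (exact permutation, adjusted p = 0.00148). ZT18 C was the lowest replicate of its timepoint for 7 of the 8 genes other than *Hspa1a* and *Hspa1b*, and ZT6 C, ZT10 C and ZT14 B were so for 6 of 8 each.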

How the results depend on the processing

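The counts of the 10 genes stayed within 1.5 times of the reported ones under the other scalings and filters, DESeq2, recovered reads, the *Hspa1a* and *Hspa1b* sum, the joint removal of ZT2 A, ZT6 C and ZT18 C (added after seeing the data) and each fit without 1 replicate, with 7 to 8 for the time test, 6 to 7 for dark against light, 6 to 7 cycling and 0 inside each pair. Without the ZT6 and ZT10 libraries (also added) the dark against light count was 4, and 3412 of all genes were called in either direction. The replicate letters showed no pairing of the samples. Same-letter deviations had correlations of -0.129 to 0.0700 over 45 pairs of libraries from different timepoints, against -0.146 to 0.151 over 90 different-letter pairs. The fit with a replicate block left the counts at 7, 7 and 0. It called 2 of all genes for ZT6 against ZT10, against 9 without it. Over all genes, ZT14 against ZT18 gave 108 calls, with DESeq2 844, with upper-quartile scaling 71, with at least 10 counts per replicate 245, without the 3 named libraries 216, and 0 to 225 without 1 replicate. ZT22 against ZT2 gave 6, with DESeq2 34, with RLE scaling 10, with the stricter filter 16, with no filter 14, without the 3 libraries 13, and 1 to 17 without 1 replicate. ZT6 against ZT10 gave 9, with DESeq2 252, with the stricter filter 4, with no filter 16, without the 3 libraries 14, and 2 to 50 without 1 replicate. The time test called 8343 genes and 5461 without ZT6 and ZT10. The cause of these shifts was not tested.

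Directions of the dark against light difference turned for *Hspa1a* (-0.04) to 0.062 when summed with *Hspa1b*, 0.47 without the 3 libraries and 1.94 without ZT6 and ZT10, for *Hspa1b* (0.45) to -0.0045 without the 3 libraries, and for *Hsp90ab1* (0.59) to -0.42 without ZT6 and ZT10. Without 1 replicate *Hspa1a* ranged from -0.44 to 0.27 and *Hspa1b* from -0.11 to 0.90. For ZT14 against ZT18, *Hspd1* turned to -0.0023 with no filter, and without the 3 libraries *Hsph1* to -0.0061, *Hsp90ab1* to -0.11, *Hspd1* to -0.11 and *Hsf1* to -0.27. Without 1 replicate the ranges there were -0.41 to 1.94 for *Hspa1b*, -0.0063 to 0.41 for *Hsph1*, -0.22 to 0.032 for *Dnajb1*, -0.11 to 0.34 for *Hsp90ab1*, -0.11 to 0.18 for *Hspd1* and -0.27 to 0.37 for *Hsf1*. For ZT6 against ZT10, *Dnajb1* turned to -0.042 with recovered reads, and without the 3 libraries *Hspa1a* turned to -0.81 and *Hspa1b* to 0.16. Without 1 replicate *Hspa1a* ranged from -0.81 to 0.56, *Hspa1b* from -1.65 to 0.26 and *Dnajb1* from -0.060 to 0.19.

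Of the ratios, ZT22 and ZT2 alone gave 0.080 for *Hsp90aa1* over *Hsp90ab1*, 0.25 for *Hsph1* over *Hspa4*, 0.24 for *Dnajb1* over *Dnaja2* and -0.59 for *Hspd1* over *Hspa8*. Without ZT6 and ZT10 they were 0.20, 0.98, 1.88 and -0.079, with 1.39 for the summed *Hspa1a* and *Hspa1b* and 0.82 for *Hspa5*, both over *Hspa8*, none past the threshold (exact permutation, adjusted p = 0.136 for the *Hsph1* and *Dnajb1* ratios). Without ZT14 and ZT18 the first 4 were -0.87, 0.52, -0.44 and -1.43, none past the threshold. Leaving out either pair left 1 phase with the 3 replicates of a single timepoint, a smaller design. The normalized table gave -0.85 for *Hspd1* over *Hspa8* (exact permutation, adjusted p = 0.0512). Without 1 replicate *Hsp90aa1* over *Hsp90ab1* ranged from -0.88 to -0.63, *Dnajb1* over *Dnaja2* from 1.04 to 1.45, and *Hspd1* over *Hspa8* from -1.15 to -0.67. Depth limited *Hspa1b* and *Hspa1a* most, with medians of 7 and 37.5 reads per replicate.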
